A study of Mus musculus with 3 samples.

Results

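The replication-dependent histone genes were taken as the protein-coding mouse genes whose RefSeq symbol starts with H1f, H2ac, H2bc, H3c or H4c and a number, or with the older prefixes Hist1h to Hist4h. The rule found 67 genes among 21887 protein-coding genes of chromosomes 1 to 19, X and Y. They comprised 10 H1 linker histone genes, 17 H2A genes, 16 H2B genes, 12 H3 genes and 12 H4 genes. Of these, 63 lay in 3 runs in which neighbours were less than 500 kb apart, on build GRCm38.p6. The proximal cluster of chromosome 13 held 22 members over 328 kb (chr13:21715711-22043658), the distal cluster of chromosome 13 held 31 over 404 kb (chr13:23531044-23934913), and the cluster of chromosome 3 held 10 over 50.3 kb (chr3:96219885-96270192). The clusters on chromosome 13 were separated by 1.49 Mb. The label did not hold for every gene that the rule takes in. The 4 members outside the clusters, H1f0, H1f7, H1f8 and H1f10, are linker histone genes that are not regarded as replication-dependent, and within the distal cluster H1f6, H2ac1 and H2bc1 are testis variants.

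The assay was ATAC-seq, which uses a transposase to tag open DNA, and the cells were hematopoietic stem cells (HSCs) of adult mice. All mice had received poly(I:C), which switches on Mx1-driven Cre, and had the genotype Mx1-Cre-/-;mTORflox/flox, so no Cre was present and mTOR was intact in every group. Cells were sorted by FACS, cultured in StemSpan SFEM medium, and exposed to 200 nM AZD2014, to 1 µM rapamycin or to the solvent DMSO, with 50000 cells per library. AZD2014 is an ATP-competitive inhibitor of mTOR in both of its complexes, and rapamycin is an allosteric inhibitor that binds through FKBP12. Each condition was a single library, so there is no replicate spread to judge a difference by and no test was made. The sources used here do not give the time of exposure, the markers of the sort or the number of animals.

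Canonical core histones are made in bulk when DNA is copied, from short genes without introns whose transcripts end in a stem-loop instead of a poly(A) tail. Transcription takes place in the histone locus body, a nuclear compartment built around NPAT, and is switched on when cyclin E and CDK2 phosphorylate NPAT at entry into S phase. H2A and H2B genes often stand back to back and share a promoter. In the animal most HSCs are outside the cell cycle.

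The deposited data were 1 peak list per library, with 21321 peaks under AZD2014, 18233 under rapamycin and 17189 under DMSO. Every list ended at a score of about 50, the median peak width was 700, 710 and 610 bp in that order, and read numbers are not given, so the depth behind a peak is unknown. A gene missing from a list had no peak that passed the authors' threshold there, which does not show closed chromatin. Labelled cell identity was checked at gene ends (within 1 kb of either end of a gene). Of 11 HSC markers, 6 had such a peak under AZD2014, 4 under rapamycin and 5 under DMSO, with Kit, Mecom, Meis1 and Hlf in every list and Ly6a, Slamf1, Procr, Gata2 and Fgd5 in none. T cell markers had 0 of 3 in every list. The erythroid markers Klf1 and Epor had a peak in every list, as did 2 of 3 megakaryocyte markers. The B cell list had 2, 2 and 1 of 4 under AZD2014, rapamycin and DMSO, the myeloid list 0, 1 and 0 of 4, the mast cell and basophil list 0, 1 and 0 of 3, and the non-blood list 1 of 4 throughout. The part of cell composition in the results was not tested.

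Promoter sequences introduce the genes on which the results turn. RefSeq promoters of GRCm38.p6, running from 250 bases before to 50 after the start, were found for 62 of the 67 members at 63 start sites. Capitals mark matches to 5 motifs, searched on both strands, so that a match can also stand as its reverse complement. The motifs were CCAAT, the TATA box written as TATAAA, the octamer ATTTGCAT, the E-box CACGTG, and the GC box with the letters GGGCGG. Member promoters held 236 matches, and no 2 overlapped within the same promoter. Windows of back-to-back genes share sequence, so some of the 236 are the same site counted for both genes. H2bc12 (chr13:22035571-22035870 on the plus strand) is shown for the back-to-back arrangement, since H2ac12 starts within its window on the opposite strand, 178 bp away.
H2bc12: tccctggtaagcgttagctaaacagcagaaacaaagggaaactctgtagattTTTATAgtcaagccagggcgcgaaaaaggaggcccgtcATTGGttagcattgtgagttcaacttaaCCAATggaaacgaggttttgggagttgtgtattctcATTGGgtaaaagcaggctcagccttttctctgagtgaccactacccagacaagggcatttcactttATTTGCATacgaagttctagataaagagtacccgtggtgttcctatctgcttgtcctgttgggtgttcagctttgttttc
H3c11 (chr13:21783348-21783647 on the minus strand), H2ac10 (chr13:23533625-23533924 on the plus strand) and H1f3 (chr13:23554782-23555081 on the plus strand) are shown because a peak lay over each start in both drug lists and not in the DMSO list.
H3c11: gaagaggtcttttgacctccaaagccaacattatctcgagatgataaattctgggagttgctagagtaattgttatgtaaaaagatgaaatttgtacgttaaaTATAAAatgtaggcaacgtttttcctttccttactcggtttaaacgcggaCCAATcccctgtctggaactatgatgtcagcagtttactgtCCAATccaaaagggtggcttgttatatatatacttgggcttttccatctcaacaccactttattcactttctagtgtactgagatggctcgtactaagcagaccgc
H2ac10: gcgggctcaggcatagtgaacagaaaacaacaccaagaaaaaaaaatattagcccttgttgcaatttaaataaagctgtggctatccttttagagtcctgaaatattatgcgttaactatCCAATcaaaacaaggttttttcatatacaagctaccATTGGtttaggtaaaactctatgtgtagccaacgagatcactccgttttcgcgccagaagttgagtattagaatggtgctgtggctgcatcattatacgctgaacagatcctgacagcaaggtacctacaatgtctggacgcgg
H1f3: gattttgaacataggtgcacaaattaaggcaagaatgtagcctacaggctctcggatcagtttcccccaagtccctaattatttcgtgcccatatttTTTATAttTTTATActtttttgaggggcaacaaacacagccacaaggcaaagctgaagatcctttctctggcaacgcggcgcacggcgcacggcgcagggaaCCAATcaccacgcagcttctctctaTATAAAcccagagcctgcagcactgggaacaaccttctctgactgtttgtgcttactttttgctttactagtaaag
H4c12 (chr13:21750504-21750803 on the minus strand) is shown beside its close copy H4c11 (chr13:21734784-21735083 on the plus strand) because H4c12 had a peak under AZD2014 and DMSO and none under rapamycin.
H4c12: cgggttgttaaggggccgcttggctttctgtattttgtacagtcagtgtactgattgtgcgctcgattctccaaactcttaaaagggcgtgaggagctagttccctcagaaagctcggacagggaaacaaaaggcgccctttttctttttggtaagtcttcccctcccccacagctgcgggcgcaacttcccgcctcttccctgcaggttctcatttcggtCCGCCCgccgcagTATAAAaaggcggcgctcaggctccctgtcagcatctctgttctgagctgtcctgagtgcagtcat
H4c11: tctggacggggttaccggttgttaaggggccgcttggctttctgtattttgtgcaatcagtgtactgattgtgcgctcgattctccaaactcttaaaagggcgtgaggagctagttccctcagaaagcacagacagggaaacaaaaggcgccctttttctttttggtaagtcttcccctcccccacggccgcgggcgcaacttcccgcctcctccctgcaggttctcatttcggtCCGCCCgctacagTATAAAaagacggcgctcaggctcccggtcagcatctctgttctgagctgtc
H1f5 (chr13:21780576-21780875 on the minus strand) is shown because its start carried no peak in any list although its other end did.
H1f5: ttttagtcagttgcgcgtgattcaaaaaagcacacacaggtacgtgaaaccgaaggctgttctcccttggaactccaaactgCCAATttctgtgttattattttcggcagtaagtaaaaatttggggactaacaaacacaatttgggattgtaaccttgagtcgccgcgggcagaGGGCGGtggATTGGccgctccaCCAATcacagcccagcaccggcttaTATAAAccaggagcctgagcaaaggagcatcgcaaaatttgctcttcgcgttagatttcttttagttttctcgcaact

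The letters of these promoters followed the histone class. CCAAT was present at 52 of 63 member start sites (82.5%), against 38.2% of all 21263 RefSeq promoters of the same length. All 17 H2A, 15 H2B and 10 H3 start sites held it, and each H2A and H2B one held it at least 2 times, whereas 3 of 11 H4 start sites did. CCAAT is bound by the NF-Y complex. TATAAA was found at 34 of 63 (54.0%, against 12.6% of all promoters), with the highest share in H4, 8 of 11. Matches were counted anywhere in the window. In H4 they began at -250 to 41 relative to the start, with a median of -79.5. The median was -190 in H2B and -32 in H2A. A TATAAA site is shared, and counted for both genes, in H2ac12 and H2bc12, H2ac15 and H2bc15, and H2ac22 and H2bc22. The same holds for H2ac7 and H2bc7, H2ac8 and H2bc8, and H2ac1 and H2bc1. The octamer, a site for the POU factor Oct-1, was found at 13 of 63 (20.6%, against 1.66%). All 13 were H2A or H2B starts (6 of 17 and 7 of 15). The octamers of H2ac12 and H2bc12, of H2ac8 and H2bc8, and of H2ac1 and H2bc1 are shared sites, counted for both genes. CCAAT sites in the shared part of back-to-back windows are counted for both genes as well. The H2A and H2B shares are therefore not drawn from separate promoters throughout. The GC box stood at 25 of 63 (39.7%, against 46.2%), and the E-box, a Myc-type site, at 0 of 63 (against 7.84%). Median GC content was 45.7% over member promoters and 56.3% over all promoters. These matches describe the letters of the window and do not show that a factor was bound.

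Nearly every clustered histone gene had a gene-end peak in each list. A gene-end peak was present at 61 of 67 members under AZD2014 (91.0%), 62 under rapamycin (92.5%) and 59 under DMSO (88.1%). Over all protein-coding genes the shares were 49.5%, 46.9% and 46%. Histone genes are short, so both of their ends fall in nearly one window. Neighbours are also close, so a gene can be counted through a peak at its neighbour. Peaks lay over 53, 50 and 47 of 63 member start sites under AZD2014, rapamycin and DMSO (84.1%, 79.4% and 74.6%). Over all RefSeq start sites the shares were 46.6%, 44.4% and 42.9%. Of 1518 other protein-coding genes shorter than 1000 bp, 3.16%, 2.96% and 2.83% had a gene-end peak in the same order. These genes were chosen by length only and were not matched for gene type or expression. A peak in all 3 lists was found at 56 members, against 43.5% of all genes. Only 4 had none in any list, and they were H1f6, H1f7, H1f8 and H1f10. Within the clusters the counts were 60, 61 and 58 of 63, and all 10 members of the chromosome 3 cluster had a peak in each list.

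Because neighbours share peaks, these genes rested on 50 distinct peaks under AZD2014, 44 under rapamycin and 42 under DMSO. Of the 50 AZD2014 peaks, 19 lay at 1 member, 25 at 2 and 6 at 3. Under rapamycin the numbers were 17, 21 and 6, and under DMSO 15, 23 and 4. The genes are therefore not independent measurements.

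Peak density inside the clusters was far above that of the chromosomes that carry them. A whole chromosome is not matched to a cluster for gene density. The chromosome 3 cluster held 8, 8 and 6 peaks under AZD2014, rapamycin and DMSO, and peaks covered 17.7%, 16.5% and 14.7% of its bases. Over chromosome 3 as a whole they covered 0.550%, 0.469% and 0.387%. The proximal cluster held 24, 21 and 19 peaks, or 73.2, 64.0 and 57.9 per Mb, where chromosome 13 as a whole had 8.13, 6.77 and 6.28 per Mb. The distal cluster held 27, 25 and 24 peaks, or 66.9, 61.9 and 59.4 per Mb. In the distal cluster 24, 22 and 21 of these lay at a histone gene end, and 2 per list lay away from the outer ends of any gene. Of those 2, 1 lay over an inner start of H2bc6. Of the 10 other protein-coding genes inside the spans, Zfp184, Slc17a4 and H4bc24 had a gene-end peak in each list. H4bc24 is itself an H2B gene by its older symbol Hist1h2br, and it lies next to H2ac24. Pom121l2, Prss16, Hfe, Trim38, Slc17a1, Slc17a2 and Slc17a3 had none in any list.

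**Figure D1:**
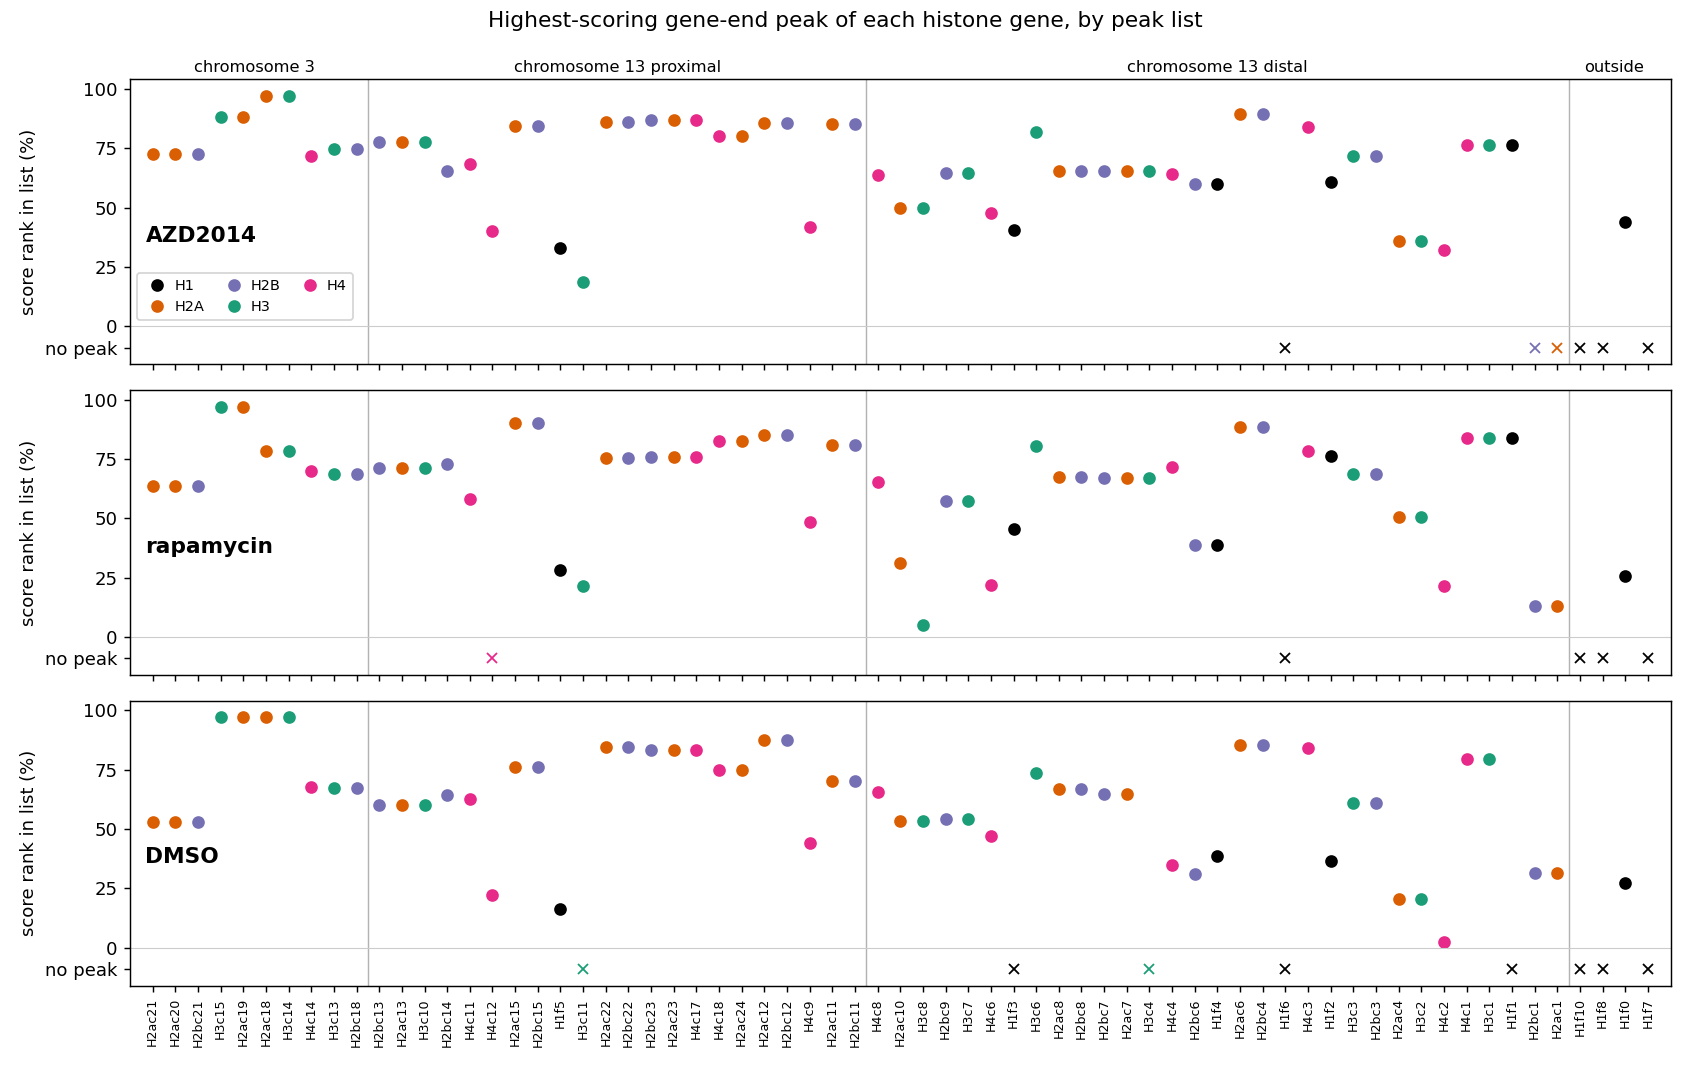
Each point is the highest-scoring gene-end peak of 1 histone gene, in genome order from left to right, and the vertical axis gives the share of peaks of the same list with a lower score, in percent; colours give the histone class and crosses mark genes without a peak. In the AZD2014, rapamycin and DMSO panels 61, 62 and 59 of 67 genes have a point, H2A and H2B genes of one pair sit at the same height because they share a peak, and most crosses belong to H1 genes. The testis gene H1f6 and H1f7, H1f8 and H1f10, which lie outside the clusters, carry a cross in every panel.

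Histone peaks had a lower median rank than gene-end peaks as a whole in each list. The score is the authors' own value and was used here as a rank, the percent of peaks in the same list with a lower score. Ranks from lists of different length do not show a change between conditions, and whether scores can be compared across lists is not stated. The median rank of histone gene-end peaks was 62.1% in the AZD2014 list, 66.2% in the rapamycin list and 59.3% in the DMSO list, beside 72.4%, 70.0% and 68.2% for all gene-end peaks. In the order AZD2014, rapamycin and DMSO, 1, 2 and 2 histone peaks ranked at or above 90%, which is 2.0%, 4.55% and 4.76% of them, against 19.01%, 17.3% and 16.4% of all gene-end peaks. The median widths of histone gene-end peaks were 938.5, 955 and 816.5 bp, beside 917, 883 and 756 bp for all gene-end peaks.

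The strongest histone gene-end peaks covered H2A, H2B and H3 genes, and several recurred between lists. Highest and widest here refer to histone gene-end peaks only. In the AZD2014 list the 3 highest scores were at H2ac18 and H3c14 (653.91, rank 97.0%), at H2ac6 and H2bc4 (459.04) and at H3c15 and H2ac19 (445.73). In the rapamycin list they were at H3c15 and H2ac19 (573.57, rank 97.0%), at H2ac15 and H2bc15 (409.26) and at H2ac6 and H2bc4 (389.19). In the DMSO list they were at H3c15 and H2ac19 (490.46, rank 97.0%), at H2ac18 and H3c14 (489.25) and at H2ac12 and H2bc12 (329.36). Of the histone gene-end peaks, that over H2ac18 and H3c14 was also the widest under AZD2014, at 2230 bp (chr3:96245020-96247249). It was the widest of them under DMSO as well, at 2361 bp. Under rapamycin the widest was that over H4c18 and H2ac24, at 2848 bp. Several of these loci are near-identical copies. H3c15 and H3c14 shared 80.8% of the 36-base words of their promoters, H2ac19 and H2ac18 69.4%, H4c17 and H4c18 94.3%, H2bc23 and H2ac24 74.7%, and H2ac23 and H2ac24 62.3%. The treatment of reads that match more than 1 copy is not stated, so which copy of each pair was open is uncertain.

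H2A and H2B genes, which encode the dimer at the rim of the nucleosome, nearly all had a gene-end peak. A gene-end peak was present at 16 of 17 H2A genes under AZD2014, 17 under rapamycin and 17 under DMSO, and at 15, 16 and 16 of 16 H2B genes. Taken by start site, peaks lay over 16, 15 and 14 of 17 H2A starts and over 14, 14 and 14 of 15 H2B starts. Under DMSO, H2ac10 and H2ac4 had no peak over the start. They were counted there through peaks over the starts of H3c8 and H3c2. Among the 62 members with a RefSeq promoter, 9 neighbouring pairs lay back to back with starts less than 1000 bp apart, each an H2A with an H2B gene, and their starts were 164 to 281 bp apart. Pairs that involve the 5 members without a promoter entry were not counted. In 8 of the 9 pairs 1 peak lay over both starts in each list. For H2ac12 and H2bc12, whose shared promoter is printed above, that peak was 1163 bp wide under AZD2014, 1234 bp under rapamycin and 1064 bp under DMSO, and ranked 85.6%, 84.9% and 87.5%. The exception was the testis pair H2bc1 and H2ac1. It had no gene-end peak under AZD2014, where the nearest peak was 19209 bp from H2bc1. Under rapamycin a peak of 324 bp (score 59.38) and under DMSO one of 404 bp (82.64) lay inside or behind H2bc1, starting 164 bp under rapamycin and 49 bp under DMSO after its start. Neither peak covered a start of the pair. H2ac1 and H2bc1 were the only members with a peak under DMSO and none under AZD2014, 2 of 67 against 1.09% of all genes, and likewise under rapamycin and not AZD2014, 2 against 1.21%. They share that single weak peak.

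H2bc6 has 2 start sites in RefSeq, 35.1 kb apart, and both were covered in every list. At the start shared with the neighbourhood of H1f4 the peak scored 118.59 under AZD2014, 96.55 under rapamycin and 81.96 under DMSO. At the other start, which lies inside the long RefSeq gene and thus outside the gene-end window, it scored 180.52, 123.18 and 73.68.

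H4 genes were covered at nearly every start. A gene-end peak was present at 12 of 12 H4 genes under AZD2014, 11 under rapamycin and 12 under DMSO, and promoters were overlapped at 11, 10 and 11 of 11 starts. The gene without a rapamycin peak was H4c12, with a peak of 940 bp under AZD2014 (score 103.41) and of 672 bp under DMSO (69.87), both over its start. The nearest rapamycin peak lay 2820 bp away, over H2ac15 and H2bc15. H4c12 was the only member with a peak under AZD2014 and not rapamycin, 1 of 67 against 3.79% of all genes, and the only one under DMSO and not rapamycin, 1 against 2.09%. Its copy H4c11 shared 21.9% of 36-base promoter words with it and had a peak in each list, of 939 bp under AZD2014, 1694 bp under rapamycin and 798 bp under DMSO. The peak over the start of H4c2 scored 86.51 under AZD2014, 68.0 under rapamycin and 52.01 under DMSO, the lowest of the peaks over those 11 H4 starts under AZD2014 and DMSO. Under rapamycin the lowest was that over the start of H4c17, which scored 50.11 and ranked 0.165%. H4c4 scored 209.3 under AZD2014, 235.62 under rapamycin and 88.01 under DMSO. Ranked among the 13670 regions found in all 3 lists, H4c4 stood at 44.3%, 62.2% and 20.8%, higher in both drug lists than in the DMSO list, from 1 library each. H4c4, like H3c8 and H1f2 below, was picked after the values were seen. Of 36 histone regions in all 3 lists, 18 ranked higher under AZD2014 than under DMSO and 20 under rapamycin. The median rank differences were 0.0585 and 1.13 percentage points, beside 0.205 and 0.154 over regions at all gene ends.

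Among H3 genes, H3c11 and H3c4 had a gene-end peak in both drug lists and not in the DMSO list. A gene-end peak was present at 12 of 12 H3 genes under AZD2014, 12 under rapamycin and 10 under DMSO. Promoters were overlapped at 9, 7 and 6 of 10 H3 start sites. H3c11 had a peak over its start under AZD2014 (chr13:21782990-21783814, score 66.3) and under rapamycin (chr13:21782958-21783620, score 67.92), and the nearest DMSO peak was 3174 bp away, behind H1f5. Both drug peaks were weak, at ranks of 18.7% and 21.5%. At the start of H3c13 on chromosome 3 the arrangement was the same. The AZD2014 peak there scored 116.25 and the rapamycin peak 51.81, and DMSO had none, although all 3 lists had a peak over the adjacent H2bc18. For H3c4 the difference was one of position. The AZD2014 and rapamycin peaks at H2bc7 and H2ac7 ended 790 and 880 bp before the start of H3c4, and the DMSO peak there ended 1052 bp from H3c4, just past the 1 kb limit. No list had a peak over the H3c4 start. H3c8 was lower under both drugs in rank among regions common to the lists, with 23.8% under AZD2014, 1.34% under rapamycin and 41.7% under DMSO.

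**Figure D2:**
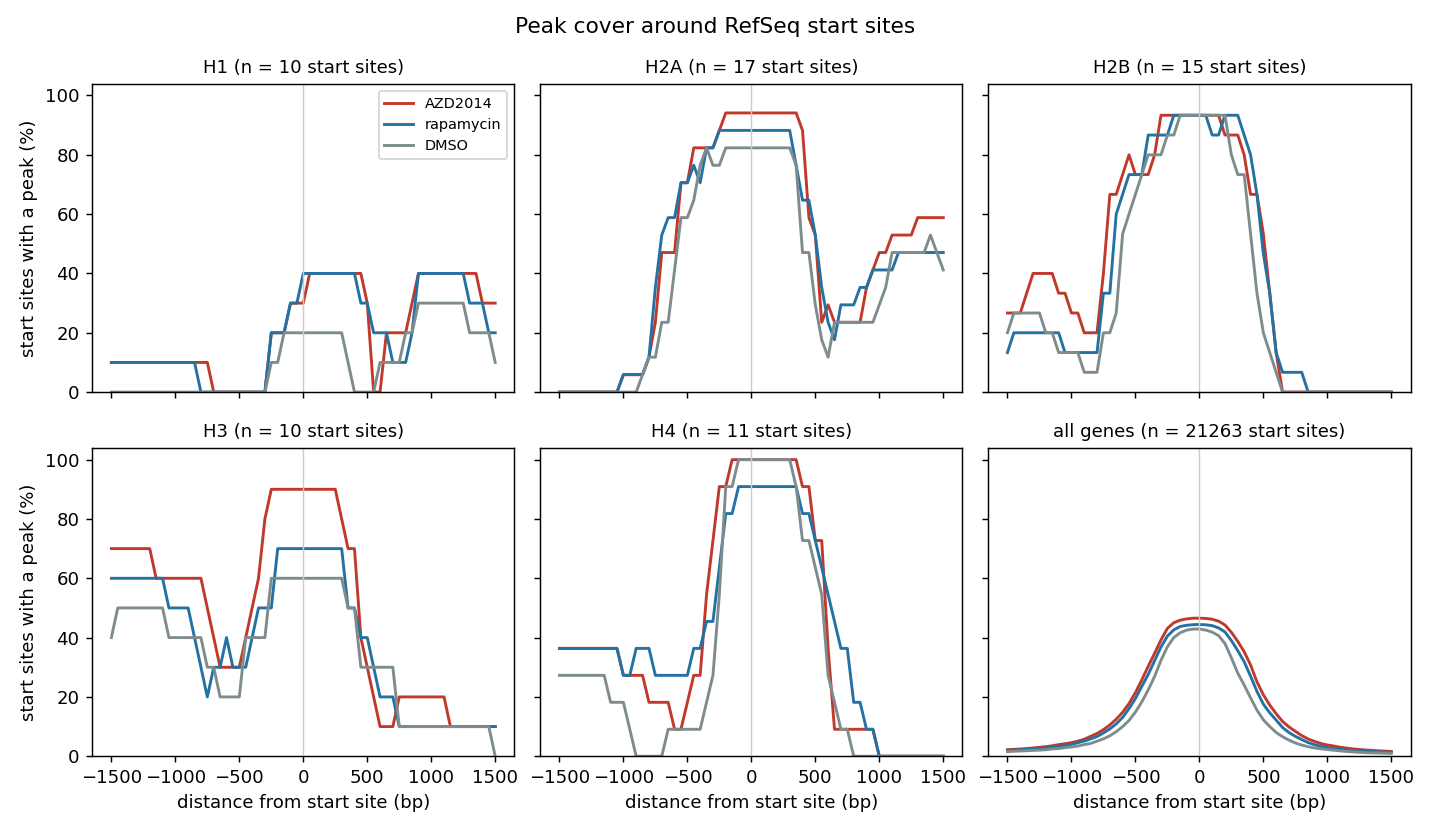
Lines give the share of RefSeq start sites of each histone class, and of all genes in the last panel, that lay inside a peak, in percent, at each distance from the start in bp; red is AZD2014, blue rapamycin and grey DMSO. At least 14 of 15 H2B and 10 of 11 H4 starts are covered in each list, H3 starts reach 9, 7 and 6 of 10 under AZD2014, rapamycin and DMSO, and at most 4 of 10 H1 starts are covered.

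Taken by start site, peaks overlapped 54 of 63 member promoters under AZD2014 (85.7%), 50 under rapamycin (79.4%) and 48 under DMSO (76.2%), against 47.5%, 45.4% and 44% of all promoters. H1 starts had the lowest share in each list and H3 starts the next lowest. The lists hold 21321, 18233 and 17189 peaks in the same order. Shortening every list to its 17189 highest-scoring peaks was an alternative chosen after the data were seen. It removed the AZD2014 peaks over the starts of H3c11, H1f3 and H2ac4. The rapamycin peaks over the starts of H3c13, H4c17 and H3c8 fell out as well, and the DMSO list was unchanged. The share over all promoters was not computed at equal length, and the part of list length was not tested further. In these bulk libraries, openness in fewer cells and less openness per cell cannot be told apart.

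Linker histone H1 genes, whose products bind the nucleosome at the DNA entry and exit, had the lowest share of genes with a peak in each list. That share counts all 10 genes taken in by the symbol rule. The 4 without a peak in any list were the testis gene H1f6 and H1f7, H1f8 and H1f10, which lie outside the clusters. The other clustered H1 genes, H1f1 to H1f5, all had a gene-end peak under both drugs. Of these, H1f1 and H1f3 had none under DMSO. A gene-end peak was present at 6 of 10 H1 genes under AZD2014, 6 under rapamycin and 4 under DMSO, and the H1 promoter was overlapped at 4, 4 and 2 of 10 starts. H1f3 had 2 peaks under AZD2014 and 2 under rapamycin and none under DMSO, where the nearest peak was 3095 bp away. The peak over its start scored 63.4 under AZD2014 and 113.66 under rapamycin, and the one behind the gene 104.71 and 74.08. None of the 4 peaks ranked above 50%. H1f1 was counted through a peak that spread from its neighbours. The peak over H4c1 and H3c1 was 2178 bp wide under AZD2014 and 2053 bp under rapamycin, and its near edge lay 727 and 844 bp before the start of H1f1. Under DMSO that peak was 1015 bp wide and ended 1765 bp before H1f1. No list had a peak over the H1f1 start.

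The other H1 genes were present in all lists or in none. H1f2 had 1 peak over the start and 1 over the end of the gene under AZD2014 (scores 164.28 and 186.18) and under DMSO (77.25 and 91.08), and a single 1590 bp peak across both under rapamycin (270.19). Among regions common to the lists H1f2 ranked 39.0% under AZD2014, 68.6% under rapamycin and 22.4% under DMSO. H1f4 had a peak over the start and 1 near the other end in each list, which overlapped the end of the gene under AZD2014 and lay behind it under rapamycin and DMSO. At H1f5 the only peak lay behind the gene, from 809 to 1546 bp after the start under AZD2014, 842 to 1444 bp under rapamycin and 884 to 1511 bp under DMSO. Its promoter, printed above, holds CCAAT 3 times and a TATAAA match. The testis gene H1f6 had no gene-end peak, and its nearest peak, 1309, 1380 and 1396 bp away in the order AZD2014, rapamycin and DMSO, lay at H4c3. H1f0, which accumulates in differentiating cells, had a peak at its start under AZD2014 (score 71.23) and rapamycin (73.61) and none there under DMSO, and a peak near its other end, close to Gcat, under AZD2014 (113.56) and DMSO (76.13). H1f7, H1f8 and H1f10 had no peak nearer than 43441 bp in any list.

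**Figure D3:**
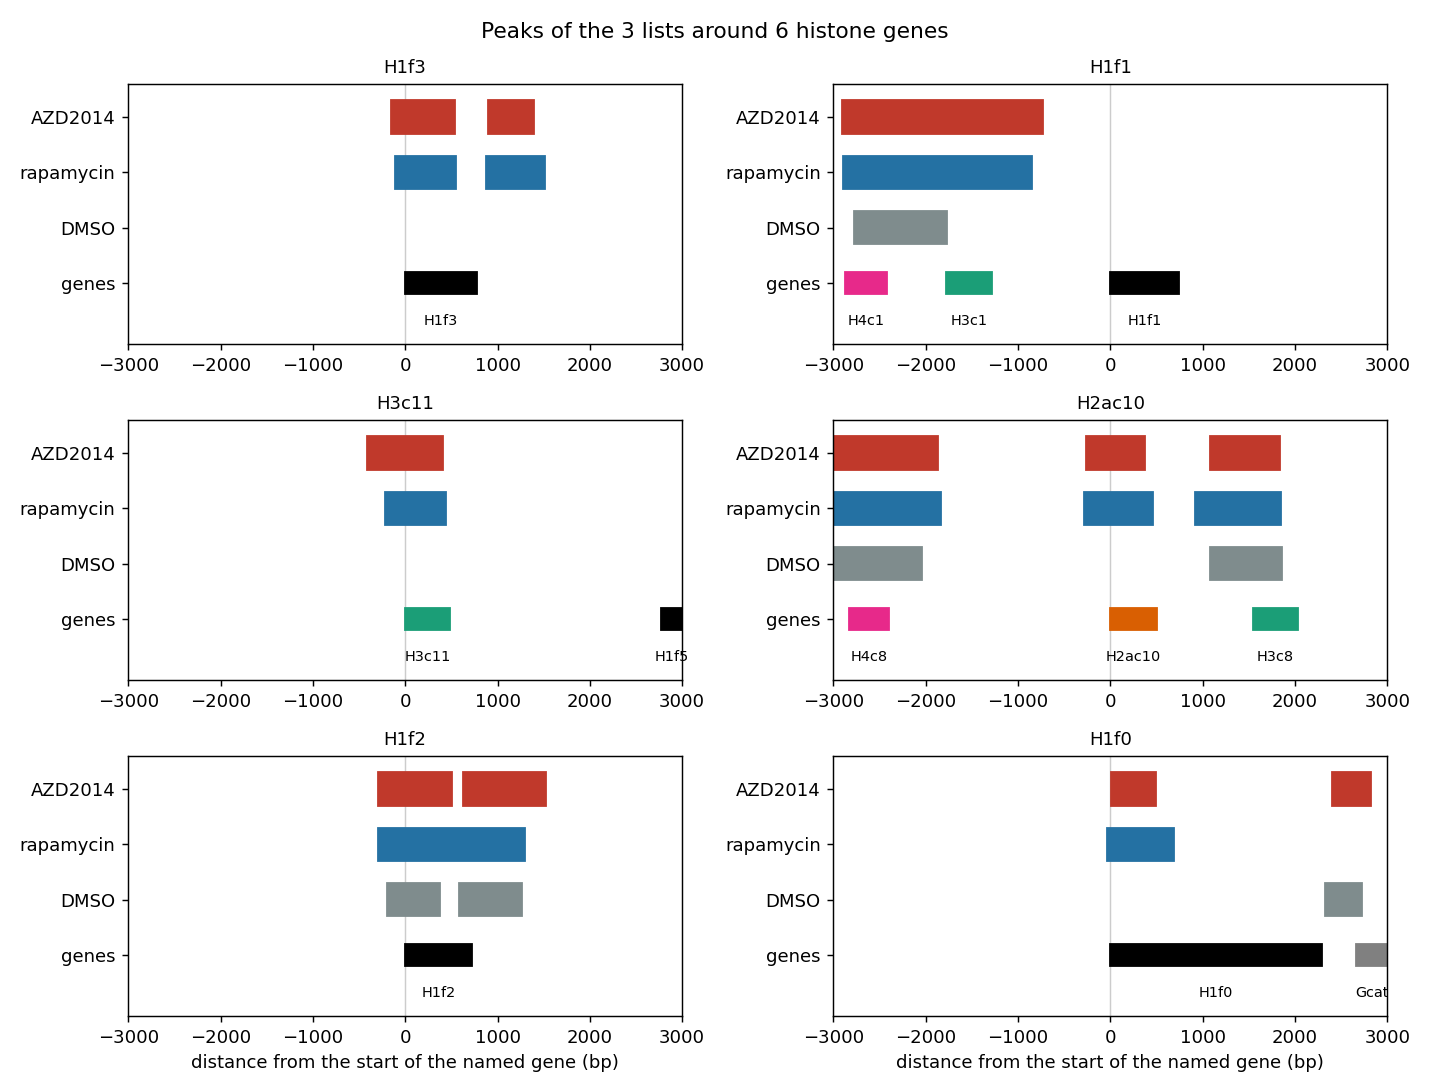
Bars are peaks of the AZD2014, rapamycin and DMSO lists, from top to bottom, around 6 histone genes, with genes drawn below them and the distance from the start of the named gene in bp along the horizontal axis. Both drug lists hold peaks at H1f3 and at the starts of H3c11, H2ac10 and H1f0 where the DMSO list holds none, the peak next to H1f1 ends nearer to it in the drug lists, and the 2 peaks of H1f2 are a single one under rapamycin.

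Counted by gene, 4 members had a gene-end peak in the AZD2014 list but not in the DMSO list, which is 4 of 67 against 4.63% of all genes. Under rapamycin and not DMSO there were also 4, against 3.05%. They were the same 4 genes, H3c11, H3c4, H1f3 and H1f1, against 2.2% of all genes found under both drugs and not DMSO. Both comparisons use the same DMSO library, and the peaks counted for H3c4 and H1f1 overlapped a DMSO peak that ended beyond the 1 kb limit.

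Merging the peaks of the 3 lists into regions avoids counting shared peaks more than once. Of 48 merged regions at histone gene ends, 36 were found in all 3 lists, against 81.5% of 10294 regions at all gene ends. Regions found under both drugs and not DMSO numbered 6 (12.5%), against 4.7%. They lay at H3c11, H2ac10, the start and the far end of H1f3, the start of H1f0, and H3c13. The drug peaks there scored 63.4 to 116.25 under AZD2014 and 51.81 to 113.66 under rapamycin. AZD2014 alone held 2 regions, against 5.9%, at H2ac13 and H3c10 (74.27) and at H2ac4 and H3c2 (53.83). AZD2014 and DMSO without rapamycin shared 3 (6.25%, against 3.03%), at H4c12, at H3c3 and H2bc3, and at the far end of H1f0. Rapamycin and DMSO shared 1 (2.08%, against 0.787%), at H2bc1 and H2ac1. No region was found under rapamycin alone, against 2.16%, and none under DMSO alone, against 1.93%. The 6 regions lay in the lower 50% of both drug lists by score. With every list shortened to its 17189 highest-scoring peaks, an alternative chosen after the data were seen, 3 regions were found under both drugs and not DMSO, 2 under rapamycin alone and 5 under AZD2014 and DMSO without rapamycin. The part that the lengths of the lists play in these counts was not tested further, and shares of merged regions over all gene ends were not computed at equal length.

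**Figure D4:**
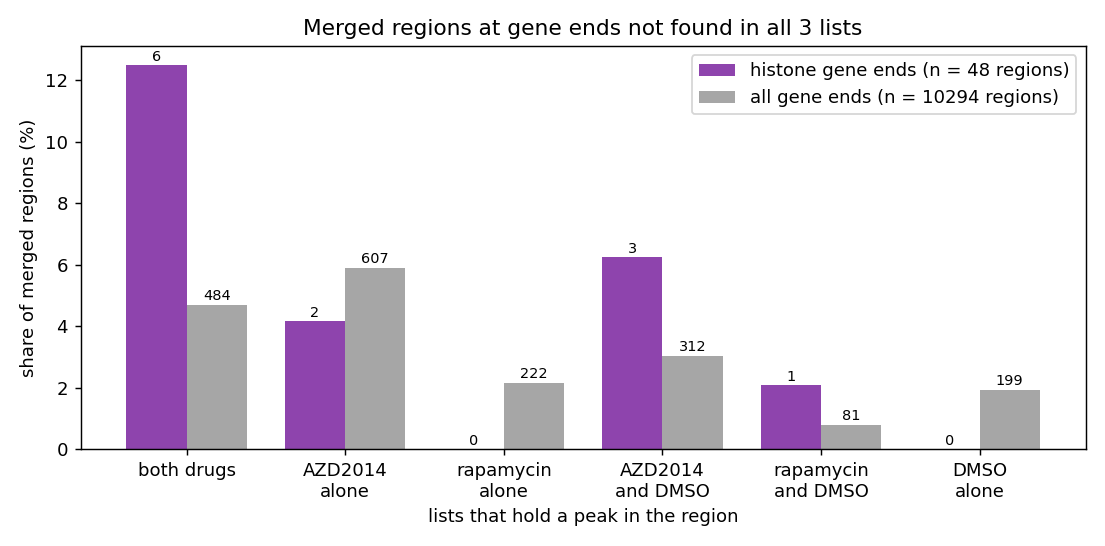
Bars give the share of merged regions, in percent, that were found in the lists named below them, for 48 regions at histone gene ends (purple) and 10294 regions at all gene ends (grey), with the number of regions above each bar; regions found in all 3 lists are left out. The purple bar for both drugs stands at 12.5% with 6 regions, beside 4.7% for all gene ends.

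No histone peak in the upper 50% of a drug list by score lacked a DMSO partner, and no such DMSO peak lacked a partner in either drug list. There were 28 AZD2014, 28 rapamycin and 25 DMSO peaks of that kind at histone gene ends. Over all gene ends the shares of upper-50% peaks without a partner were also small, 0.959% of AZD2014 and 0.383% of rapamycin peaks without DMSO, and 0.0309% and 0.17% of DMSO peaks without AZD2014 and without rapamycin. In the lower 50%, 8 of 22 AZD2014 histone peaks (36.4%) had no DMSO partner, against 45.1% at all gene ends, and 6 of 16 rapamycin histone peaks (37.5%) had none, against 29.1%. Of 17 DMSO histone peaks in the lower 50%, 1 had no AZD2014 partner, against 11.1%, and 3 had no rapamycin partner, against 20%.

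At the 36 regions found in all 3 lists, histone peaks were wider under the drugs, as gene-end peaks were in general. The AZD2014 peak was wider than the DMSO peak in 29 of 36 regions, with a median width ratio of 1.15, beside 1.22 over 8389 regions at all gene ends. The rapamycin peak was wider than the DMSO peak in 28 of 36, with a median ratio of 1.18, beside 1.16. Between the drugs the median ratio of AZD2014 over rapamycin was 1.01, beside 1.05. Where a list had 2 peaks in a region their widths were summed. A width at least 1.5 times that of DMSO was found at 3 regions under AZD2014 (8.33%, against 18.8% of regions at all gene ends) and at 3 under rapamycin (8.33%, against 13.1%). The region over H4c1, H3c1 and H1f1 was in both sets, with 2178 and 2053 bp under the drugs and 1015 bp under DMSO. Under AZD2014 the others lay at H2bc9 and H3c7 (931 bp, and 561 bp under DMSO) and at H2bc7, H2ac7 and H3c4 (1149 bp, and 718 bp under DMSO). Under rapamycin they lay at H4c11 (1694 bp, and 798 bp under DMSO) and at H2bc23, H2ac23 and H4c17 (1622 bp, and 1015 bp under DMSO).

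**Figure D5:**
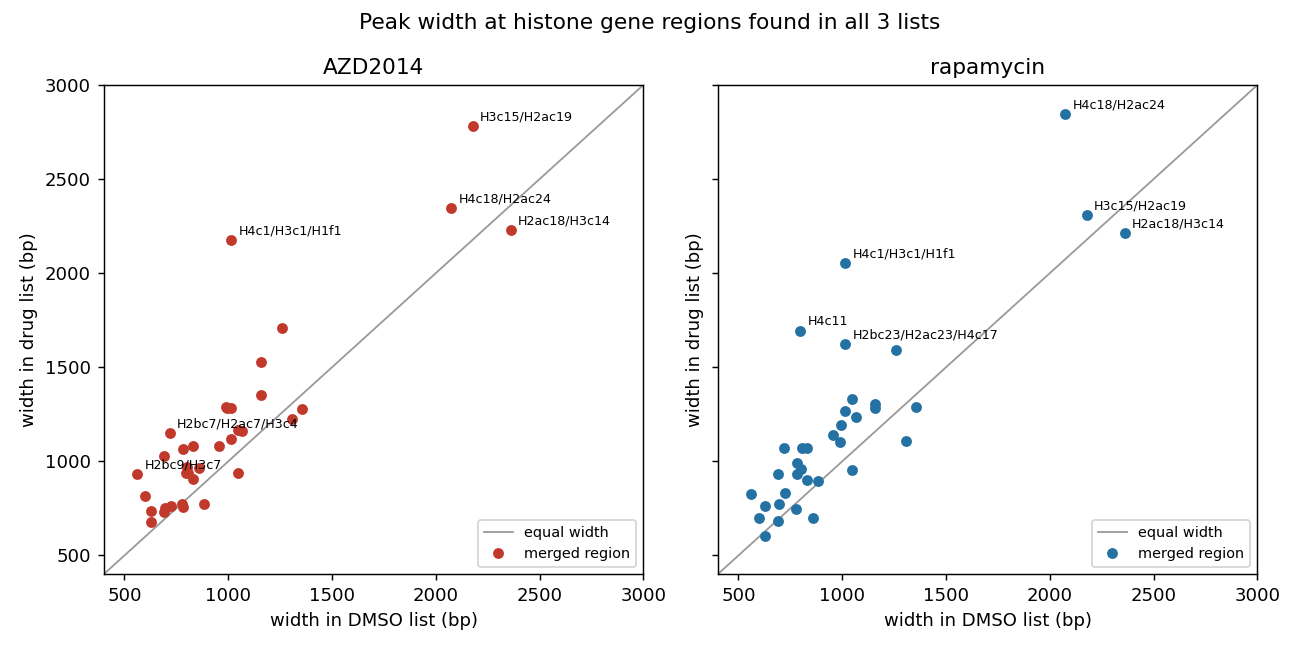
Each point is 1 of 36 regions at histone gene ends found in all 3 lists, with its peak width in the AZD2014 list (left) or the rapamycin list (right) on the vertical axis and in the DMSO list on the horizontal axis, both in bp, and the line marks equal width. In the AZD2014 panel 29 and in the rapamycin panel 28 of 36 points lie above the line, and the point for H4c1, H3c1 and H1f1 lies farthest above it in the AZD2014 panel.

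The number of peaks listed within 1 region differed between lists in 4 of the 36 histone regions, 11.1% against 2.3% of regions at all gene ends. At H4c18 and H2ac24, 2 peaks under AZD2014 and 2 under DMSO stood where rapamycin had 1 of 2848 bp, and H1f2 showed the same pattern. At H3c15 and H2ac19 AZD2014 had 2 peaks and rapamycin and DMSO 1 each, and at H2ac18 and H3c14 rapamycin had 2 and AZD2014 and DMSO 1 each. Score and rank there are those of the highest-scoring peak.

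Genes that act on the histone clusters showed no difference between lists by this measure. Of 14 genes for histone transcription and the locus body, 13 had a gene-end peak in each list, among them Npat (rank 97.3% under AZD2014, 95.4% under rapamycin and 96.1% under DMSO), Casp8ap2, which encodes the locus-body protein FLASH, and Hinfp, a factor for H4 promoters. The gene without a peak was Nfyc. All 18 genes for processing and decay of histone mRNA, such as Slbp, whose product binds the stem-loop, and all 19 chaperone genes, such as Asf1a and Chaf1a, had a peak in each list. Over all genes 43.5% had a peak in all 3 lists. Between any 2 lists, 1.09% to 4.63% of all genes had a peak in the first and not in the second. Equal status was thus usual and not particular to these genes. Equal status did not mean equal rank. Under AZD2014, rapamycin and DMSO, Coil ranked 31.5%, 30.8% and 2.44%, and Snrpf 55.2%, 59.6% and 74.9%. Of 8 genes for replication-independent variants 6 had a peak in each list, and H3f3b and Macroh2a2 had none in any. H2az1 ranked 96.0%, 84.5% and 92.2% and H2az2 99.1%, 98.3% and 97.2% under AZD2014, rapamycin and DMSO.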

How the data were processed

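ATAC-seq was done on 3 libraries, 1 per condition, and groups were taken from the sample titles. Each deposited list belongs to a single library, and calling was thus done sample by sample. A line holds a position, a name and a score, the authors' own value for that peak. The submitters' processing notes name CASAVA and the build mm10. Not given in the sources used here were the aligner, the caller settings, the treatment of duplicates and of reads with several matches, and any transposase shift. Such choices decide which weak peaks are listed and how wide they are, and read depth is unknown.

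Genes came from the RefSeq table of GRCm38.p6, the assembly named mm10, and starts were counted from 1. A gene-end peak lay within 1 kb of either end of a gene, with an overlap of at least 1 bp. Peaks that overlapped across lists were joined into merged regions. Promoters came from the RefSeq table. No test was possible with 1 library per condition, so counts stand beside the same share over all genes. The members, gene lists and rule for named genes were chosen with earlier results of these data known. Named were members whose status differed between lists, those at the 3 highest-scoring and 3 widest peaks of each list, those without a peak, and those outside the clusters. Other members, named for their merged regions, widths, sequences or ranks, were added after their values were seen. The overlap code was tested on an altered copy of the DMSO list, where all 200 removed and all 200 added gene-end calls were found over 21887 genes. Some listed marker genes are not reported here. Alternatives are given in the closing section. Computation used Python 3.11.15, numpy 2.4.6 and pandas 2.3.3, and figures matplotlib 3.10.9.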

Additional observations from a re-analysis of the deposited data

How the results depend on the processing

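Of 140 alternative values of the counts, medians and shares, 109 stayed close to the value reported (within 1.5 times for counts, within an order-statistic interval for medians) and 31 did not. Counts of members with a gene-end peak stayed within 1.5 times in each list under every alternative tried. The small counts between lists moved with the window. With gene ends of 500 bp, 2 members had a peak under DMSO and not rapamycin and 3 under AZD2014 and not rapamycin, where 1 each was reported. With 2500 bp, 2 instead of 4 had one under AZD2014 and not DMSO, and 2 instead of 4 under rapamycin and not DMSO. With peaks narrowed to their central 200 bp, the counts were 2 under rapamycin and not DMSO, 2 under DMSO and not rapamycin and 3 under AZD2014 and not rapamycin. With lists of equal length, 2 of 67 members had a peak under DMSO and not rapamycin, against 2.34% of all genes. Under AZD2014 and not rapamycin there were also 2, against 2.53%. Both counts were also 2 in the upper 50% by score. For the other alternatives of this paragraph the share over all genes was not computed. The AZD2014 peak of H3c11 falls out at equal length and those of H3c11 and H1f3 in the upper 50%.

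The upper 50% held 28, 28 and 25 distinct peaks at histone gene ends under AZD2014, rapamycin and DMSO. Counting every peak inside a span, at histone gene ends or not, it held 10, 11 and 10 in the proximal and 15, 14 and 10 in the distal cluster of chromosome 13. Its merged regions numbered 23 in all 3 lists, 2 under both drugs and not DMSO, 1 under AZD2014 alone, 2 under rapamycin alone, 1 under DMSO alone, 0 under AZD2014 and DMSO and 0 under rapamycin and DMSO. At equal lengths the regions were 3 under both drugs and not DMSO, 5 under AZD2014 and DMSO and 2 under rapamycin alone, and AZD2014 peaks overlapped 2 tRNA genes of the proximal cluster instead of 4. The alternatives for regions, promoters and tRNA genes were added after the data were seen. For these regions no share over all gene ends was computed in the shortened lists. Fewer peaks enter the shortened lists, and other causes were not tested. No paired analysis was possible because each condition has 1 library. No list gives read numbers, so a gene without a peak is below the authors' threshold and may be open.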

Other observations

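The proximal histone cluster of chromosome 13 also holds 31 tRNA genes, which RNA polymerase III transcribes. Peaks overlapped 4 of them under AZD2014 (12.9%), 6 under rapamycin (19.4%) and 1 under DMSO (3.23%). Over the 377 tRNA genes elsewhere in the genome the shares were 37.7%, 29.2% and 31.0%. Only n-TVaac3 was overlapped in all 3 lists, and n-TDgtc12 and n-TMcat8 in both drug lists and not under DMSO. Copies of tRNA genes can be near-identical, and the treatment of reads with several matches is not stated, so which copy was open is uncertain. These genes were chosen after their values were seen.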
